A study of Mus musculus with 6 samples.

Results

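Dio2 encodes type II iodothyronine deiodinase, an enzyme of the endoplasmic reticulum membrane that removes an outer ring iodine from thyroxine and so makes triiodothyronine, the active thyroid hormone, inside the cell. The gene was 1 of 2195 genes listed in the deposited table, and it was selected on its difference between the Gab1IEC KO and Gab1fl/fl colons. That difference is therefore given as a description, without a test. RNA-Seq was done on the colon tissue of 3 Gab1IEC KO mice (Gab1fl/fl carrying Cre under the Villin promoter, which deletes Gab1 in intestinal epithelial cells) and 3 Gab1fl/fl littermates, whose libraries are labelled WT. The mice were 8 to 10 weeks old, and all 6 had drunk 3% DSS for 7 days, which damages the lining of the colon. No colon without DSS was analysed here. Each SD below measures the spread between the 3 libraries of a group. Standard errors are those of limma, which pools both groups and draws each gene's variance towards that of other listed genes.

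Levels were read counts that the authors had scaled by library, called normalized counts here. One read was worth 0.912 to 1.06 normalized counts. The listed genes held 1957437 to 2787670 reads in Gab1IEC KO libraries and 1977460 to 2204738 in Gab1fl/fl libraries, which is a part of each library, and the full depth is unknown. The table is cut at an unadjusted p of 0.05 in the comparison made by the authors, which kept 2195 of 16716 genes (13.1%), so a gene without a row had a larger p there or was not tested. Gab1 had no row, and its deletion could not be checked in these values. Of 15 colon epithelium markers 1 was listed, the water channel Aqp8, with 2039 to 4817 normalized counts in Gab1IEC KO and 3556 to 6434 in Gab1fl/fl libraries. In such tissue libraries, fewer cells of a type and less RNA per cell cannot be told apart.

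Thyroid hormone action in a cell is set in part by its deiodinases. Dio2 and Dio1 can activate thyroxine, Dio1 can also degrade hormone and Dio3 inactivates it, and the hormone then acts through the nuclear receptors Thra and Thrb. Dio2 is best known from brain, pituitary and brown fat, where cAMP raises its transcription, and its protein is short-lived because its substrate triggers ubiquitination. The deiodinases are selenoproteins, which read a UGA codon as selenocysteine in place of a stop.

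Dio2 (ENSMUSG00000007682) lies on the minus strand of chromosome 12 from 90724552 to 90738438 (GRCm38). Its GENCODE M21 model has 2 exons. The first (90738063 to 90738438, 376 bases) holds the 5′UTR and the start of the coding sequence. The second (90724552 to 90729990, 5439 bases) holds the other 576 coding bases and a 3′UTR of 4863 bases, so most countable sequence of the gene is 3′UTR. The catalytic selenocysteine codon is codon 130 of 266, at chr12:90729823-90729825, and another annotated selenocysteine codon is codon 263, at chr12:90729424-90729426, close to the end of the coding sequence. An antisense lncRNA, Gm26512, starts on the plus strand inside the first exon and shares 100 exon bases with Dio2 (90738201 to 90738300). The sources used here do not say whether counting used strand, and without strand reads from those bases could belong to either gene. Gm26512 had no row.

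The coding sequence around the catalytic codon is shown because it marks Dio2 and Dio1, the listed deiodinases with opposite directions below, as members of the same enzyme family. The codon, in capitals, stands between 30 bases on each side, 5′ to 3′ along the GENCODE M21 transcript. Dio1 (ENSMUSG00000034785, minus strand of chromosome 4 from 107291465 to 107307169) has it as codon 126 of 257, at chr4:107297700-107297702. Over this stretch the genes shared 36 of 63 bases.
Dio2: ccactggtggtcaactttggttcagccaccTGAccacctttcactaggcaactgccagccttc
Dio1: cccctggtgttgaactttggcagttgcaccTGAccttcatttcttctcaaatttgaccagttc

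The promoter is shown because the cAMP response element (CRE) through which cAMP acts on Dio2 is visible in it. In the RefSeq annotation of GRCm38.p6 the gene starts at 90739038, which is 600 bases upstream of the GENCODE start. The 150 bases before that start (chr12:90739039-90739188, minus strand, written 5′ to 3′ along the gene) held a full CRE, TGACGTCA, beginning 95 bases before the start, and a TATA box, TATAAA, beginning 30 bases before it. Both are in capitals.
Dio2 promoter: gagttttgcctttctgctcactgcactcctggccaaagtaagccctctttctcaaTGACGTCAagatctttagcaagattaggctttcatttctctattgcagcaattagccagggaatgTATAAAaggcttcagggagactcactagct

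Searched on both strands of RefSeq promoters of 300 bases, TGACGTCA was present in 507 of 27025 (1.88%) and in 35 of the 1484 that matched listed genes (2.36%). TATAAA was present in 14.2% of all promoters. The AP-1 letters TGANTCA, found in 7.93% of all promoters, did not occur in the Dio2 window. Of the 50 listed genes whose levels were most like Dio2, 25 matched a promoter, and none of those 25 held TGACGTCA. At a share of 2.36% among listed genes, 25 promoters are too few for that count to show a difference. These are matches of letters and do not show binding.

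Dio2 was low in every Gab1fl/fl colon and higher in every Gab1IEC KO colon. Its normalized counts were 427.6, 176.7 and 511.7 in Gab1IEC KO replicates 1 to 3, against 57.2, 23.4 and 2.87 in Gab1fl/fl replicates 1 to 3. The groups did not overlap, and the lowest Gab1IEC KO library lay 3.09-fold above the highest Gab1fl/fl library. Over all listed genes, every Gab1IEC KO library lay above every Gab1fl/fl library in 943 (43.0%), and since the listing used this contrast nothing is read from that count for Dio2.

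Behind these values stood 403, 173 and 561 reads in Gab1IEC KO libraries and 57, 23 and 3 reads in Gab1fl/fl libraries. The exact 95% Poisson intervals, which cover counting error only, ran over 386.8 to 471.4, 151 to 205 and 470.2 to 555.8 normalized counts in Gab1IEC KO replicates 1 to 3. In Gab1fl/fl replicates 1 to 3 they ran over 43.3 to 74.1, 14.8 to 35.1 and 0.592 to 8.40. Gab1IEC KO replicate 2 thus stood below the other Gab1IEC KO libraries, and each Gab1fl/fl library stood apart from the others, by more than counting error. Gab1fl/fl replicate 3 held only 3 reads and gives the least precise value.

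**Figure D1:**
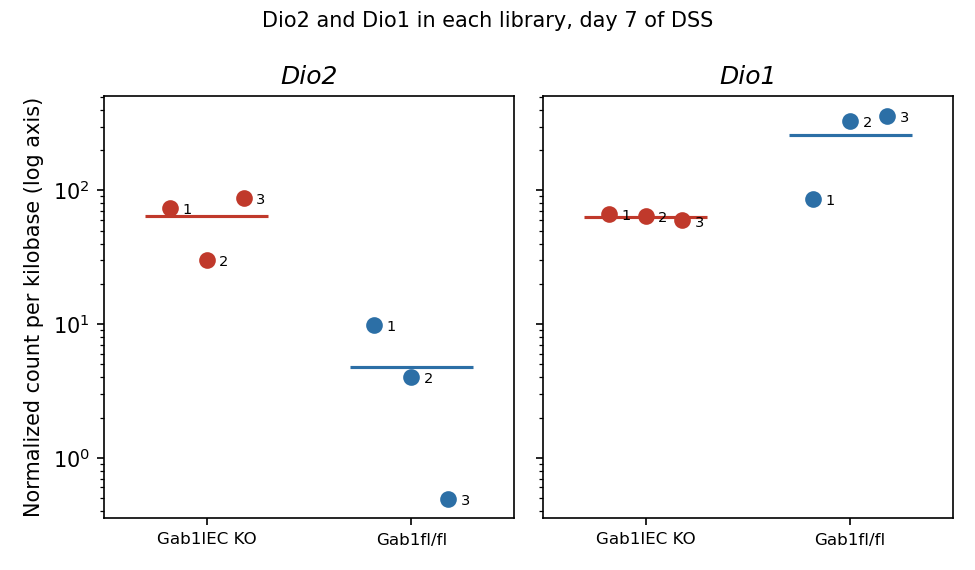
Normalized counts per kilobase of gene length (log axis) of the deiodinase genes Dio2 and Dio1 in Gab1IEC KO (left in each panel) and Gab1fl/fl colons; points are libraries with their replicate number and the bars are group means. Dio2 sat at 30.4 to 88.0 in Gab1IEC KO against 0.494 to 9.84 in Gab1fl/fl libraries, whereas Dio1 sat lower in all Gab1IEC KO libraries.

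The means were 372 ± 174 normalized counts in Gab1IEC KO and 27.8 ± 27.4 in Gab1fl/fl colons (SD, n = 3 each), a ratio of 13.4. On the log2(normalized count + 1) scale the difference, Gab1IEC KO minus Gab1fl/fl, was 4.26 with a standard error of 0.95. It was the second largest of 2195 listed genes, beside a median of 0.79 over all of them. Csf3, the granulocyte growth factor, stood just above it at 5.27, and the acute phase gene Saa3 (4.21), the macrophage chitinase-like gene Chil3 (3.94), the neutrophil collagenase Mmp8 (3.93) and the cytochrome P450 genes Cyp2c65 (3.93) and Cyp2c55 (3.85) stood just below. For Cyp2c55 the groups overlapped, with 1959, 8.17 and 720 normalized counts in Gab1IEC KO against 40.1, 11.2 and 7.66 in Gab1fl/fl replicates 1 to 3. Cyp2c65 had 1207, 44.9 and 114 in Gab1IEC KO replicates 1 to 3. The mean Dio2 level over the 6 libraries, 199.9 normalized counts, was below the listed median of 255.9.

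The size of the Dio2 difference moved with the lowest library. Without Gab1fl/fl replicate 3 the log2 difference was 3.17, and without Gab1fl/fl replicate 1 it was 5.12. On the recovered reads edgeR and DESeq2, which do not average logarithms, gave 3.74. Within the Gab1fl/fl group the highest Dio2 level was 19.9-fold the lowest, against 2.90-fold within Gab1IEC KO. The SD on the log2 scale was 0.818 in Gab1IEC KO and 1.996 in Gab1fl/fl, where it ranked 11th highest of the listed genes. Over the listed genes higher in Gab1IEC KO the median SD in Gab1fl/fl was 0.44.

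Of 13 genes of thyroid hormone activation and transport 2 were listed, Dio2 and Dio1. The share of all 16716 genes that was listed, 13.1%, stands beside the listed counts of this and each later list. Dio1 was lower in Gab1IEC KO at an unadjusted limma p under 0.05. Over all listed genes 879 (40.0%) were higher and 328 (14.9%) lower at that threshold. All were listed for this contrast, so these counts and p-values are not independent of the listing. No listed gene had a Benjamini-Hochberg adjusted limma p under 0.05 over 16716 genes (lowest 0.384). edgeR called 0 and DESeq2 117 at the adjusted threshold, with 1204 and 1405 genes at an unadjusted p under 0.05, against 1207 by limma. With 1 library left out limma's unadjusted count was 731, 1405 and 713 without Gab1IEC KO replicates 1, 2 and 3, and 1524, 601 and 537 without Gab1fl/fl replicates 1, 2 and 3. At the adjusted threshold limma called 2 genes without Gab1fl/fl replicate 2 and 1 with the replicate number as a block, and 0 without any of the other 5 libraries. The words higher and lower below give directions of values, since with all 6 libraries and no block limma called no gene at the adjusted threshold.

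Dio1, the type I deiodinase, had 131.6, 126.7 and 117.7 normalized counts in Gab1IEC KO replicates 1 to 3, against 170.6, 653.6 and 712.5 in Gab1fl/fl replicates 1 to 3. The groups did not overlap, and every Gab1IEC KO library lay below every Gab1fl/fl library, as in 423 of all listed genes (19.3%). The Gab1IEC KO values lay close together, whereas Gab1fl/fl replicate 1, the Gab1fl/fl library with the most Dio2, had far less Dio1 than replicates 2 and 3. The means were 125 ± 7.05 and 512 ± 297 normalized counts (SD, n = 3 each) in Gab1IEC KO and Gab1fl/fl, a log2 difference of -1.77 with a standard error of 0.54 (adjusted p = 0.497, limma). Without Gab1fl/fl replicate 3 the difference was -1.41 and its unadjusted limma p was 0.0524.

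Per kilobase of gene length, Dio2 averaged 64.0 and Dio1 63.6 normalized counts in Gab1IEC KO colons. In Gab1fl/fl colons Dio2 averaged 4.79 and Dio1 260.0 per kilobase. In single libraries Dio2 was at 73.5, 30.4 and 88.0 per kilobase in Gab1IEC KO and at 9.84, 4.03 and 0.494 in Gab1fl/fl. Dio1 was at 66.8, 64.3 and 59.7 per kilobase in Gab1IEC KO and at 86.6, 331.8 and 361.7 in Gab1fl/fl. Dio2 thus stood at 1.10, 0.473 and 1.47 of the Dio1 level in Gab1IEC KO replicates 1 to 3, and at 0.114, 0.0121 and 0.00137 of it in Gab1fl/fl replicates 1 to 3. The ratio of the Gab1fl/fl means, 0.0184, was 0.00652 without replicate 1 and 0.0331 without replicate 3. Levels of Dio2 against Dio1 depend on the gene lengths in the authors' table, 5815 and 1970 bases. Which transcripts the colon expressed was not examined, so these ratios are approximate.

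Dio3 and the other 10 genes of activation and transport had no row. None of 10 thyroid hormone receptors and coregulators, Thra and Thrb among them, was listed. Neither was any of 10 genes of deiodinase ubiquitination and turnover or of 8 genes of selenocysteine incorporation. The levels of these unlisted genes are not analysed here. Of all 16716 genes 13.1% were listed, so nothing is read from absence in lists this short.

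Among 20 genes known to respond to thyroid hormone in other tissues, chiefly liver, 4 were listed. Dio1, itself raised by triiodothyronine in mouse liver, was lower in Gab1IEC KO, as above. Ppargc1a, a coactivator of mitochondrial genes, had 252.5, 305.4 and 505.3 normalized counts in Gab1IEC KO against 465.6, 709.5 and 707.7 in Gab1fl/fl (log2 difference -0.86). Scd1, a fatty acid desaturase that triiodothyronine lowers in mouse liver, had 644, 1373 and 1069 in Gab1IEC KO against 1268, 1788 and 2255 in Gab1fl/fl (log2 difference -0.81). The groups overlapped for both. Me1, the cytosolic malic enzyme and a classical gene raised by thyroid hormone in liver, had 409.5, 440.2 and 445.1 in Gab1IEC KO against 333, 352 and 329 in Gab1fl/fl (log2 difference 0.35), and its unadjusted limma p was above 0.05. At that threshold 0 were higher and 3 lower, Dio1 among the 3. Over all listed genes 40.0% were higher and 14.9% lower at it, and 4 listed genes are too few to compare with these shares. Without Gab1IEC KO replicate 1 or Gab1fl/fl replicates 2 or 3, p was above the threshold for Ppargc1a (0.126, 0.117 and 0.109) and for Scd1 (0.158, 0.106 and 0.155). So it was for Ppargc1a without Gab1IEC KO replicate 2 (0.0865), and for Scd1 without Gab1IEC KO replicate 3 (0.0674) and by edgeR (0.0519).

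Selenoproteins did not follow one direction. Of 24 selenoprotein genes 7 were listed, 4 higher and 2 lower at an unadjusted limma p under 0.05. Over all listed genes 40.0% were higher and 14.9% lower at that p. The median log2 difference of the 7 was 0.69, beside 0.79 over all listed genes. Dio2 is counted among the 4, and since it was chosen on this contrast its p is not read as a test. Dio1 is counted among the 2. Gpx3, the secreted glutathione peroxidase, had 6267, 3964 and 9809 normalized counts in Gab1IEC KO against 2787, 2118 and 1338 in Gab1fl/fl (log2 difference 1.65, standard error 0.39). Its libraries fell in the same order as those of Dio2, and its Pearson r with Dio2 was 0.96 over 6 libraries. Gpx2, the epithelial glutathione peroxidase, had 3727, 8698 and 3601 in Gab1IEC KO against 6910, 11468 and 11467 in Gab1fl/fl, and the groups overlapped (log2 difference -0.99, standard error 0.38). Selenow (0.69), Selenon (0.79) and Selenom (0.38) were higher in every Gab1IEC KO library, Selenom with an unadjusted limma p above 0.05. With Dio2 counted, 3 in place of 6 selenoproteins were under that p without Gab1fl/fl replicate 2 or replicate 3.

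Of 24 genes of cAMP signalling and early response 11 were listed, 10 higher in Gab1IEC KO and 1 lower. Of the 10, 6 had an unadjusted limma p under 0.05, and the median log2 difference of the 11 was 1.14. Over all 2195 listed genes 1536 were higher, 879 (40.0% of the 2195) at that p, with a median of 0.79. Nr4a1, an early response nuclear receptor, had 866.8, 334.0 and 594.7 normalized counts in Gab1IEC KO against 167.6, 145.6 and 127.4 in Gab1fl/fl, a log2 difference of 1.92. Its groups did not overlap. The phosphodiesterases Pde4b (1.40) and Pde10a (1.39), which degrade cAMP, and the adenylyl cyclase Adcy1 (1.31), which makes it, were higher as well. Adcy6, another adenylyl cyclase, was lower in every Gab1IEC KO library (log2 difference -0.47), with an unadjusted limma p above 0.05. Without Gab1IEC KO replicate 1 or Gab1fl/fl replicate 2 the number at an unadjusted p under 0.05 was 3.

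NF-kB, which can act on the human DIO2 promoter, was followed through 14 genes it induces, of which 4 were listed. The adhesion molecules Icam1 (log2 difference 0.73) and Vcam1 (0.86) and the mitochondrial dismutase Sod2 (0.71) were higher, and Nfkbiz (-0.53), a regulator of NF-kB in the nucleus, was lower, all at an unadjusted limma p under 0.05. Over all listed genes 40.0% were higher and 14.9% lower at that threshold, and 4 listed genes are too few to compare with these shares. Icam1 and Nfkbiz passed that threshold no longer with the replicate number as a block, or without any of Gab1IEC KO replicates 2 and 3 and Gab1fl/fl replicates 2 and 3, which left 2 of the 4. Nfkbiz did not pass without Gab1IEC KO replicate 1 either.

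**Figure D2:**
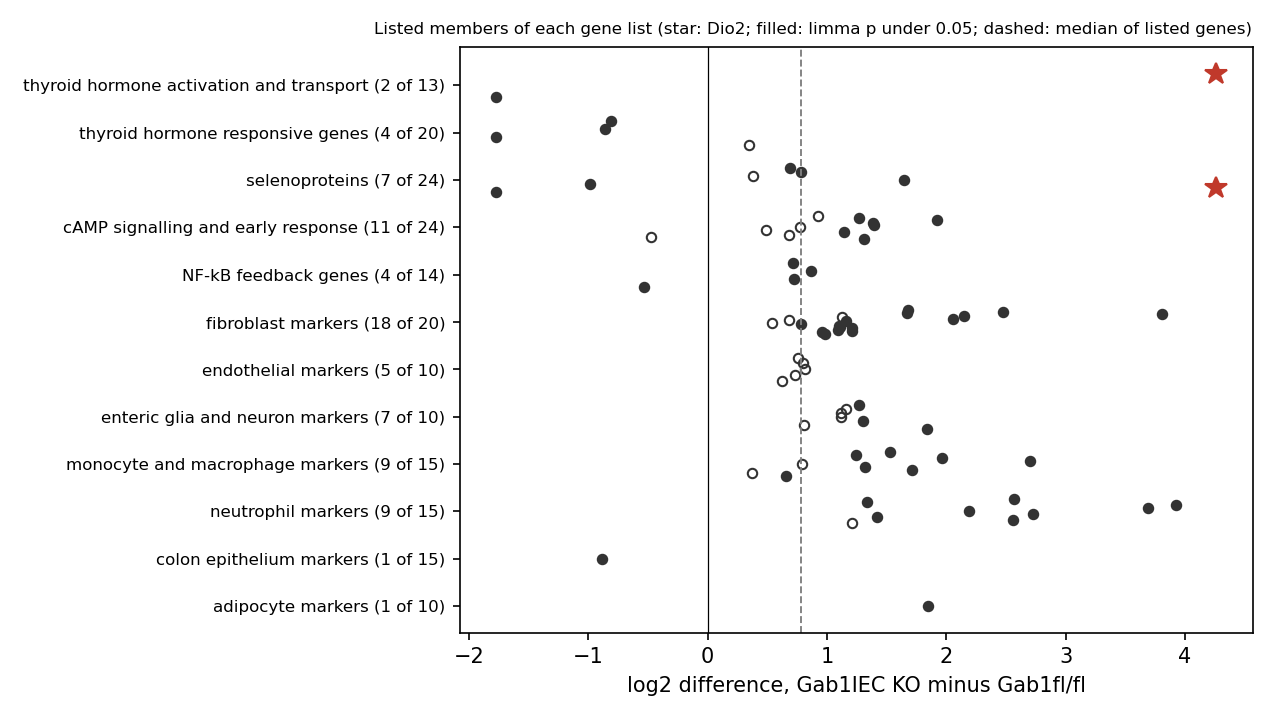
Log2 differences, Gab1IEC KO minus Gab1fl/fl, of the listed members of each gene list (points; numbers in brackets give listed members of all members). Filled points had an unadjusted limma p under 0.05, the star is Dio2, and the dashed line is the median of all listed genes, 0.79; Dio2, at 4.26, lay to the right of every other point.

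Markers of connective tissue and of infiltrating leukocytes were higher in the same libraries as Dio2, and their part in the Dio2 difference was not tested. Of all 2195 listed genes 1536 were higher, 879 of them (40.0% of the 2195) at an unadjusted limma p under 0.05. Every Gab1IEC KO library lay above every Gab1fl/fl library in 43.0% of listed genes, and 13.1% of all 16716 genes were listed. The counts of markers below stand beside these shares. Of 20 fibroblast markers 18 were listed, all 18 higher in Gab1IEC KO and 15 at an unadjusted limma p under 0.05, with a median log2 difference of 1.14. Their summed levels were 73005, 58192 and 104648 normalized counts in Gab1IEC KO against 44090, 26225 and 29916 in Gab1fl/fl, a ratio of means of 2.35. The groups did not overlap. The cytokine Il11 (log2 difference 3.81), the collagen cross-linking enzyme Lox (2.47), the hyaluronan synthase Has1 (2.15) and the BMP antagonist Grem1 (2.06) had the largest differences on that list.

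Dio2 was chosen for a difference larger than that of the fibroblast sum, so the direction of its level per fibroblast count is fixed by that choice and is given as a description. It stood at 5.86, 3.04 and 4.89 per 1000 normalized counts of fibroblast markers in Gab1IEC KO replicates 1 to 3, against 1.30, 0.893 and 0.0960 in Gab1fl/fl replicates 1 to 3, a ratio of means of 6.03.

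Of 15 neutrophil markers 9 were listed, all 9 higher and 8 at an unadjusted limma p under 0.05, with a median log2 difference of 2.56. Their summed levels were 3310, 4588 and 8311 in Gab1IEC KO against 1976, 778 and 860.0 in Gab1fl/fl, a ratio of means of 4.49. Per 1000 normalized counts of neutrophil markers, again as a description, Dio2 stood at 129, 38.5 and 61.6 in Gab1IEC KO against 28.9, 30.1 and 3.34 in Gab1fl/fl, a ratio of means of 3.67. Gab1IEC KO replicate 1 had the fewest neutrophil marker counts of its group and the second most Dio2. The sums rest in good part on 1 gene, Lcn2. It alone held 1606, 1427 and 3603 normalized counts in Gab1IEC KO and 592, 252 and 264 in Gab1fl/fl replicates 1 to 3. The cells it came from were not tested. The antimicrobial granule gene Ngp was the only list member at 0 in a library, Gab1fl/fl replicate 3.

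Monocyte and macrophage markers had 9 listed genes of 15, each of them higher and 7 at an unadjusted limma p under 0.05, with a median log2 difference of 1.32. Their summed levels were 5254, 6072 and 8450 in Gab1IEC KO against 3892, 3626 and 3002 in Gab1fl/fl. Of 10 markers of enteric glia and neurons 7 were listed, all higher and 3 at that p, a share near the 40.0% of all listed genes, with sums of 2263, 1227 and 2561 in Gab1IEC KO against 1433, 517 and 658 in Gab1fl/fl. Those sums overlapped. Leaving out a single library gave 1 to 6 such genes at that p, with 1 without any of Gab1IEC KO replicates 1 and 3 and Gab1fl/fl replicates 2 and 3, and 6 without either of the others. All 5 listed endothelial markers of 10 were higher and none had an unadjusted limma p under 0.05 (0 at the adjusted p). Without Gab1IEC KO replicate 2 the number was 3 and without Gab1fl/fl replicate 1 it was 4. None of 10 smooth muscle or 10 skeletal muscle markers was listed.

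Brown fat is a main site of Dio2 expression. Of 10 adipocyte markers only Lpl, which macrophages and muscle also express, was listed. It had 2308, 1448 and 2521 normalized counts in Gab1IEC KO against 1768, 366 and 276 in Gab1fl/fl (log2 difference 1.85), and its groups overlapped. Adipoq and the brown fat gene Ucp1 had no row, so their levels are not analysed here.

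The genes that followed Dio2 over the 6 libraries were ranked by Pearson r with Dio2 on the log2(normalized count + 1) scale. Since every gene was listed for the same contrast, r was high for most and is a description: all 1535 other higher genes had a positive r (median 0.86), and all 659 lower genes a negative r (median -0.84). Over 0.95 lay 174 other genes, and below -0.95 lay 57. The Dio2 order of the libraries, Gab1IEC KO replicates 3, 1 and 2 and then Gab1fl/fl replicates 1, 2 and 3 from high to low, was found in 193 other higher genes (12.6%), and 24 lower genes (3.64%) had the reverse order. Dio1 had an r of -0.91.

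**Figure D3:**
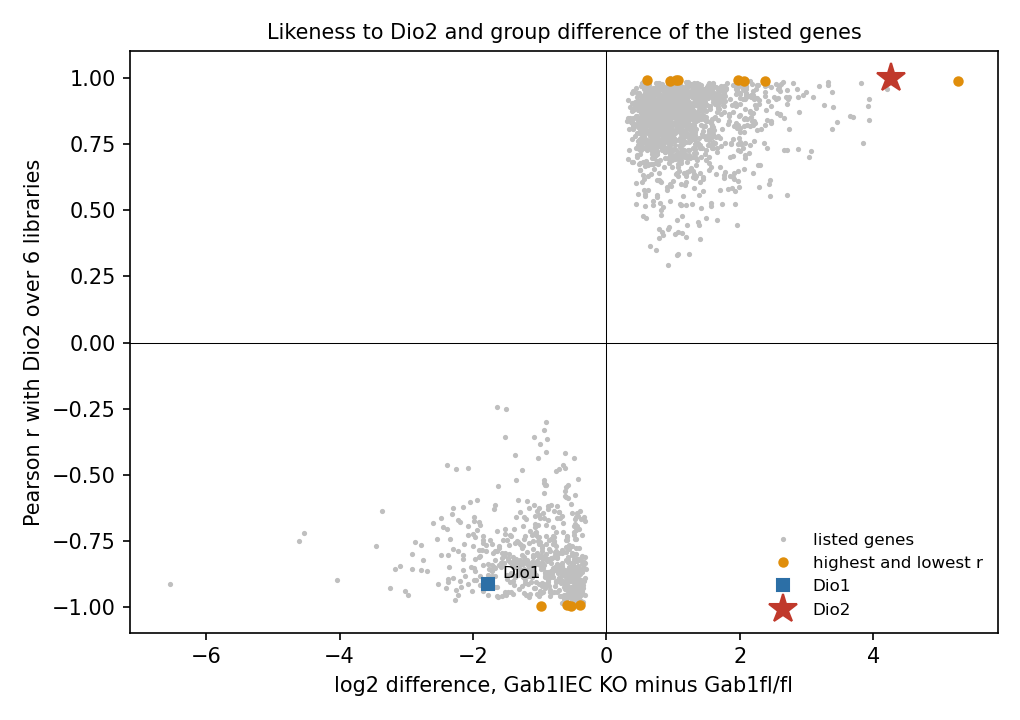
Each point is a listed gene, placed by its log2 difference, Gab1IEC KO minus Gab1fl/fl, and its Pearson r with Dio2 over the 6 libraries. Genes to the right of 0 all had a positive r and genes to the left of 0 a negative r, and the 8 named genes of highest r spread over log2 differences of 0.61 to 5.27.

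The 8 named genes of highest r were Copz2, Eva1b, Mrc2, Twist2, Acsl4, Pla1a, Csf3 and Il1a, with r of 0.987 to 0.994. Mrc2, a collagen receptor of fibroblasts and other mesenchymal cells, had 736, 513 and 721 in Gab1IEC KO against 406, 320 and 223 in Gab1fl/fl (log2 difference 1.07). Twist2, a transcription factor of mesenchymal cells, had 26.5, 12.3 and 28.3 in Gab1IEC KO against 9.03, 5.09 and 1.92 in Gab1fl/fl (log2 difference 1.97). All 8 showed Gab1IEC KO replicate 2 as the lowest of its group, as Dio2 did. So did 1046 of the 1536 higher genes.

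Pla1a, a phosphatidylserine phospholipase, had 471, 352 and 548 normalized counts in Gab1IEC KO against 218, 99.8 and 56.5 in Gab1fl/fl (log2 difference 2.06). Acsl4, which activates arachidonic acid, had 1263, 1165 and 1541 in Gab1IEC KO against 945, 700.4 and 469 in Gab1fl/fl (log2 difference 0.95). Csf3 had 137, 86.8 and 270.0 in Gab1IEC KO against 13.0, 3.05 and 0 in Gab1fl/fl, so its log2 difference depends on the pseudocount. Pla1a, Acsl4 and Csf3 were lowest in Gab1fl/fl replicate 3. Il1a, an inflammatory cytokine, had 95.5, 72.5 and 102 in Gab1IEC KO against 43.1, 19.3 and 4.79 in Gab1fl/fl (log2 difference 2.38), in the same library order as Dio2. Copz2, a subunit of the COPI vesicle coat, and the membrane protein gene Eva1b had log2 differences of 0.61 and 1.04.

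**Figure D4:**
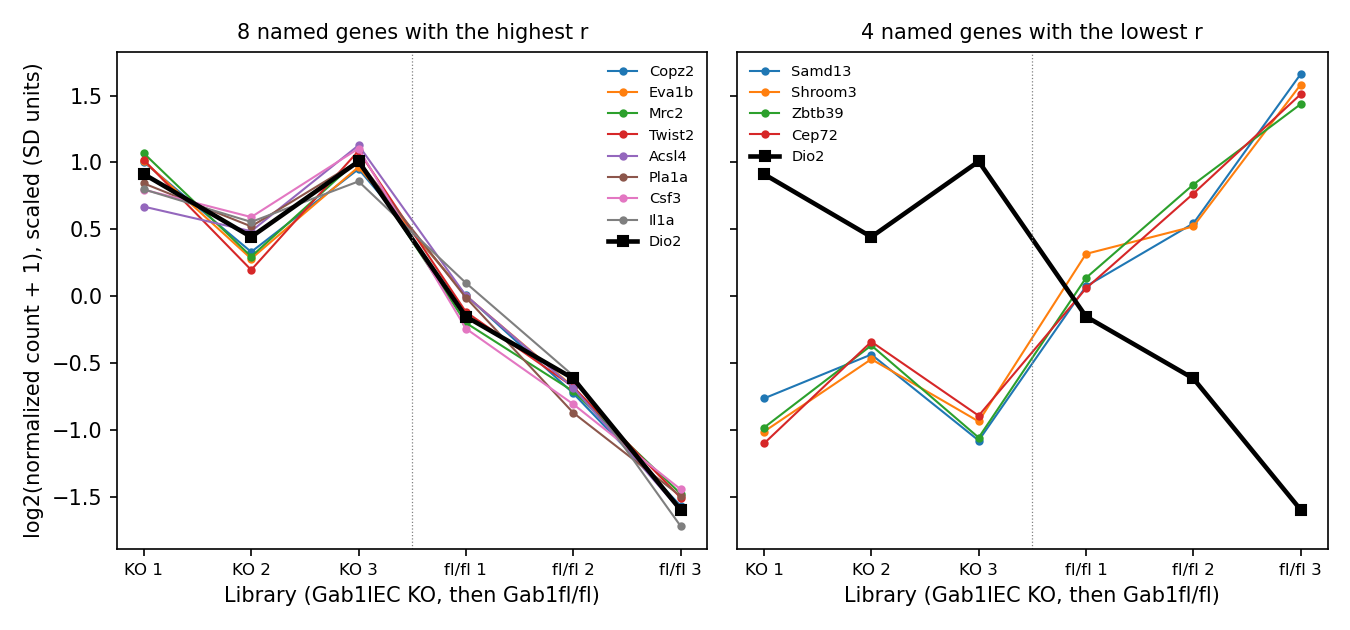
Log2(normalized count + 1) of Dio2 (black) with the 8 named genes of highest r (left panel) and the 4 of lowest r (right panel), each gene set to mean 0 and SD 1 over the 6 libraries, so heights compare shape and not the size of change. The 8 genes shared with Dio2 the dip in Gab1IEC KO replicate 2 and the minimum in Gab1fl/fl replicate 3, and the other 4 peaked in that library.

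At the other end, Samd13 had the lowest r (-0.996), with 14.9, 17.4 and 12.8 normalized counts in Gab1IEC KO against 22.1, 27.5 and 46.0 in Gab1fl/fl. Shroom3, an actin-binding protein that shapes the apical side of epithelial cells, followed (r = -0.995), with 3237, 3669 and 3295 in Gab1IEC KO against 4401, 4615 and 5896 in Gab1fl/fl. Zbtb39 and the centrosomal gene Cep72 had r of -0.991 and -0.990. Shroom3 and Samd13 were highest in the Gab1fl/fl library that was lowest in Dio2.

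Each gene was then centred on its group means, so that only the spread between libraries of a group was left. After this 25 other genes had an r over 0.95 with Dio2, and the median over the other higher genes was 0.61. The spread of Dio2 itself lay mostly in Gab1fl/fl (log2 SD 1.996 against 0.818), where replicate 3 rests on 3 reads. No centred r with a library left out is given. Of the named genes Eva1b (0.986), Copz2 (0.983), Fhl3 (0.981), Togaram2 (0.980) and Tspan4 (0.979) had the highest values, and Samd13 (-0.991), Adcy6 (-0.986) and Shroom3 (-0.982) the lowest. Togaram2, which has a role in cilia, had 42.4, 28.6 and 42.9 normalized counts in Gab1IEC KO against 7.02, 6.11 and 1.92 in Gab1fl/fl, a log2 difference of 2.80. Many genes shared parts of this spread. Among the 1536 higher genes, Gab1IEC KO replicate 2 was the lowest of its group in 1046 and replicate 3 the highest in 951, and Gab1fl/fl replicate 1 was the highest of its group in 1244 and replicate 3 the lowest in 847.

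Which genes came first depended on the scale. With unlogged values 260 genes had an r over 0.95 and none of the 8 named genes stayed among the first 8, 4 of them still over 0.95. By Spearman rho 194 genes lay over 0.95, 5 of the 8 among them. Leaving out 1 library at a time gave 219 to 318 genes, the most without Gab1IEC KO replicate 2 (318) and then without Gab1fl/fl replicate 2 (292). All 8 genes stayed over 0.95 in each case, while 0 to 3 of them stayed among the first 8 that could be named (0 without Gab1fl/fl replicate 3).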

How the data were processed

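The gene and the lists were chosen with earlier results of these data known. Reads from 6 colon libraries (3 Gab1IEC KO, 3 Gab1fl/fl, total RNA selected by poly-T) had been aligned with HISAT2 2.0.5 and counted with featureCounts 1.5.0-p3, per the submitters' processing notes. These name a human genome build, whereas 2113 of 2195 gene coordinates equalled GENCODE M21 (GRCm38). What the authors deposited is a signal, the count of a gene in a library over that library's size factor. The authors' log2 fold changes, p-values and adjusted p-values were deposited beside it. They were not compared, and served only to derive the number of genes behind the adjustment (16716). Gene lengths and coordinates came from the authors' table. Whole reads came back for 100% of values within 0.01 of a read.

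As the values are not raw counts, limma 3.58.1 (R 4.3.3, trend) was run on log2(normalized count + 1), with Benjamini-Hochberg adjustment over 16716 genes, unlisted genes taken as larger p. Its variance prior rests on listed genes alone, as do the dispersions of the alternatives edgeR 4.0.16 (quasi-likelihood) and DESeq2 1.42.0, run on recovered reads. Size factors for these alternatives were inferred from the normalized count that a single read was worth in each library. The pipeline was tested on simulated data. Other alternatives were a pseudocount of 0.1, a mean of at least 10, the replicate number as a block, and each library left out. Likeness to Dio2 was Pearson r over 6 libraries. Named were Dio2, the 8 genes of highest and 4 of lowest r, the 5 highest and 3 lowest after centring on group means (mean of at least 10), the 5 next to Dio2 on each side in log2 difference, and up to 4 listed members of each of 17 lists. Predicted genes, RIKEN genes and receptor segments were not named. Selenom, Selenon and Selenow are named outside this rule, after their values were seen. Promoters are from RefSeq (GRCm38.p6). Genes that are not reported here were passed over in this naming and left out of the lists.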

Additional observations from a re-analysis of the deposited data

How the results depend on the processing

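The log2 difference of Dio2 was 4.41 with a pseudocount of 0.1, 3.74 by edgeR and by DESeq2, and 3.17 to 5.12 with 1 library left out. It was positive in each. Listed genes at an unadjusted limma p under 0.05 numbered 1188 with the pseudocount of 0.1, 1056 with the mean filter, and 537 to 1524 with 1 library left out. With the replicate block they numbered 1266, and 1 gene had an adjusted p under 0.05, while the Dio2 difference stayed at 4.26. Under the replicate block the NF-kB list had 2 genes at an unadjusted p under 0.05 and the glia and neuron list 6, with 5 for glia and neurons by DESeq2. Libraries of equal number had correlations of 0.20, 0.30 and -0.14 of their deviations from group means, so the numbers were not taken as pairs. Genes with an r over 0.95 with Dio2 numbered 159 with the pseudocount of 0.1 and 170 with the mean filter, with all 8 named genes still the first 8 in both, and 219 to 318 with 1 library left out. With 1 library left out, genes under that p numbered 2 to 4 for NF-kB, 3 to 8 for cAMP, 3 to 6 for selenoproteins, 1 to 6 for glia and neurons, 0 to 4 for endothelium, 11 to 16 for fibroblasts, 5 to 7 for macrophages and 7 to 9 for neutrophils. The table holds listed genes only, and 3 reads of Dio2 in Gab1fl/fl replicate 3 limit its lowest value.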
